A study of Oryza sativa with 23 samples.

Results

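Among 52901 rice probes, 194 passed limits on size and background and were lower on every drought root array than on any well-watered one. Each of the 194 stands for a different locus. They were chosen by these values: in the table of log2 values deposited with the arrays, the highest of 12 drought arrays lay below the lowest of 11 well-watered arrays, the mean difference was below -1.5, and the probe was well above background on at least 9 well-watered arrays. This is 0.367% of all probes. The choice used drought against well watered over all genotypes, so that the size of the fall is a description here and carries no test. Without the demand on size and on background, 314 probes (0.594% of all) were lower on every drought array, and 833 probes were higher on every drought array.

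Roots were collected 25 days after sowing from 4 genotypes. IR64-WT is the cultivar IR64, and IR64-Tr-E2 is a transgenic event of IR64 that overexpresses OsNAM12.1, a transcription factor gene of the drought-yield locus qDTY12.1. Vandana is the recipient cultivar, and NIL-481-B is its near isogenic line that carries qDTY12.1 from Way Rarem. The name NIL-481-B puts the abbreviation for near isogenic line before the line's name in the labels. Where 4 values follow one another, they stand for IR64-WT, then IR64-Tr-E2, then NIL-481-B, then Vandana. For drought, soil of all 4 dried down from 75% of their field capacity. The control soil was kept wetter for both IR64 lines (1.2 times field capacity) than for NIL-481-B and Vandana (field capacity), so that in any comparison of the 2 backgrounds the genotype and the watering cannot be told apart. There were 2 arrays of well-watered IR64-Tr-E2 and 3 of each other group. IR64-Tr-E2 is 1 transgenic event. Whether plants were pooled for an array is not given in the sources used here, so the p-values below measure the spread between arrays. The labels give no more of the root than the tissue, and fewer cells of a type and less RNA per cell cannot be told apart in whole roots.

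Between 31.6% and 64.2% of spots were well above background on an array. On 912 probes chosen because the backgrounds differed there on the drought arrays (limma, Benjamini-Hochberg, over 2 log2 units), the array labelled Vandana well-watered replicate 2 lay nearer the IR64 lines at 82.6% of probes, against 4.06% and 22.9% for the other 2 Vandana well-watered arrays and 72.7% to 86.6% for the IR64 lines. It was kept under its label, and results that move by over 1.5 times or change a call without it are given without it too. The root markers (silicon and nitrate transport genes) were above background on at least 22 of 23 arrays. The 5 leaf markers (small subunits of RuBisCO and chlorophyll a/b-binding proteins) were above background on 19 to 23 arrays, and their summed level on the log2 scale ranged from 6.70 to 15.1 under drought and 9.999 to 14.0 when well watered for IR64-WT. The ranges were 7.32 to 14.8 and 8.80 to 9.52 for IR64-Tr-E2, 8.78 to 15.7 and 8.54 to 14.1 for NIL-481-B, and 7.73 to 11.1 and 8.13 to 13.2 for Vandana. Their part in the results below was not tested.

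Water shortage changes the root in many ways. Abscisic acid raises the genes of protective proteins such as dehydrins, while growth and uptake of nutrients slow. Grasses take up iron by secreting mugineic acids, chelators made from nicotianamine, and by importing the ferric chelate, and in rice a direct import of ferrous iron works beside it. Regulators of the bHLH family switch on these genes when iron is short. The dehydrin and LEA3 list, which holds no member of the 194, rose in every genotype: 6 of 7 genes were called higher in each genotype after Bonferroni adjustment in limma (background 0.246%, 0.263%, 0.106% and 0.117% of probes called higher in the 4 genotypes).

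The median fall over the 194 loci was 2.59 on the log2 scale in IR64-Tr-E2 (6.03-fold), 2.53 in IR64-WT (5.79-fold), 2.13 in Vandana (4.39-fold) and 2.03 in NIL-481-B (4.09-fold). The corresponding median over all probes lay between -0.05 and 0.00. The fall exceeded 2-fold at 194, 194, 186 and 194 loci, and 16-fold at 35, 36, 9 and 17 loci, in the 4 genotypes. The smallest was 0.68 log2 units, at LOC_Os02g29960 in NIL-481-B. With normexp background correction the median changes were smaller, at -1.49, -1.55, -1.175 and -1.27. With each array shifted to its 75th percentile, the median changes were -2.57, -2.71, -2.04 and -2.20, and IR64-Tr-E2 still had the largest fall. Relative to the median of all probes with that shift they were -2.09, -1.59, -2.01 and -1.63. Only then did the order of the genotypes turn, with the smallest fall in IR64-Tr-E2. The plot of falls by genotype shows the spread of the loci.

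**Figure D1:**
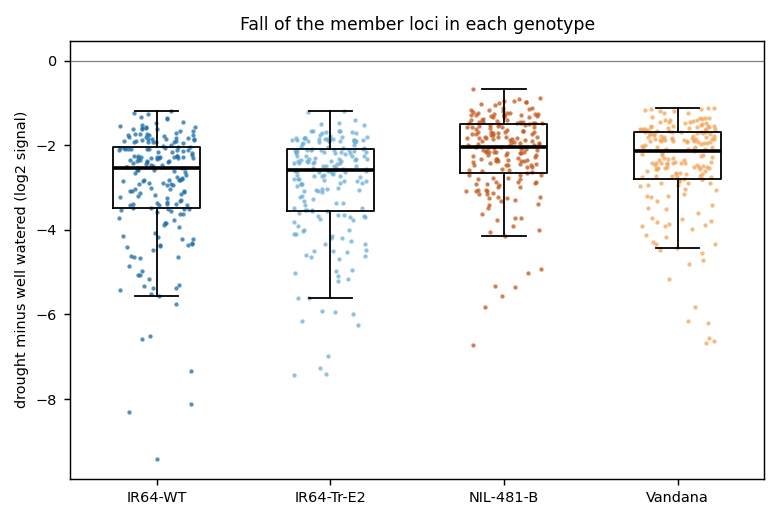
Fall of the 194 loci in each genotype. The vertical axis is drought minus well watered on the log2 signal scale. Points are loci, boxes the quartiles with the median and whiskers 1.5 times the box. The medians of the IR64 lines (2.59 and 2.53) lie lower on the plot than those of Vandana (2.13) and NIL-481-B (2.03).

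The median log2 signal of the 194 loci on an array was 8.03 ± 0.24 (SD, n = 3) in well-watered IR64-WT and 5.33 ± 0.56 (SD, n = 3) under drought. It was 8.20 ± 0.09 (SD, n = 2) and 5.41 ± 0.65 (SD, n = 3) in IR64-Tr-E2. It was 8.03 ± 0.36 and 5.87 ± 0.06 (SD, n = 3 each) in NIL-481-B, and 8.03 ± 0.26 and 5.72 ± 0.59 (SD, n = 3 each) in Vandana. Well-watered levels of the 4 genotypes lay close together, and the drought arrays of NIL-481-B were the closest to each other. Of the 12 drought arrays, IR64-WT replicate 3 was the lowest (4.76) and Vandana replicate 2 the highest (6.19). The heat map by array shows the break between treatments.

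**Figure D2:**
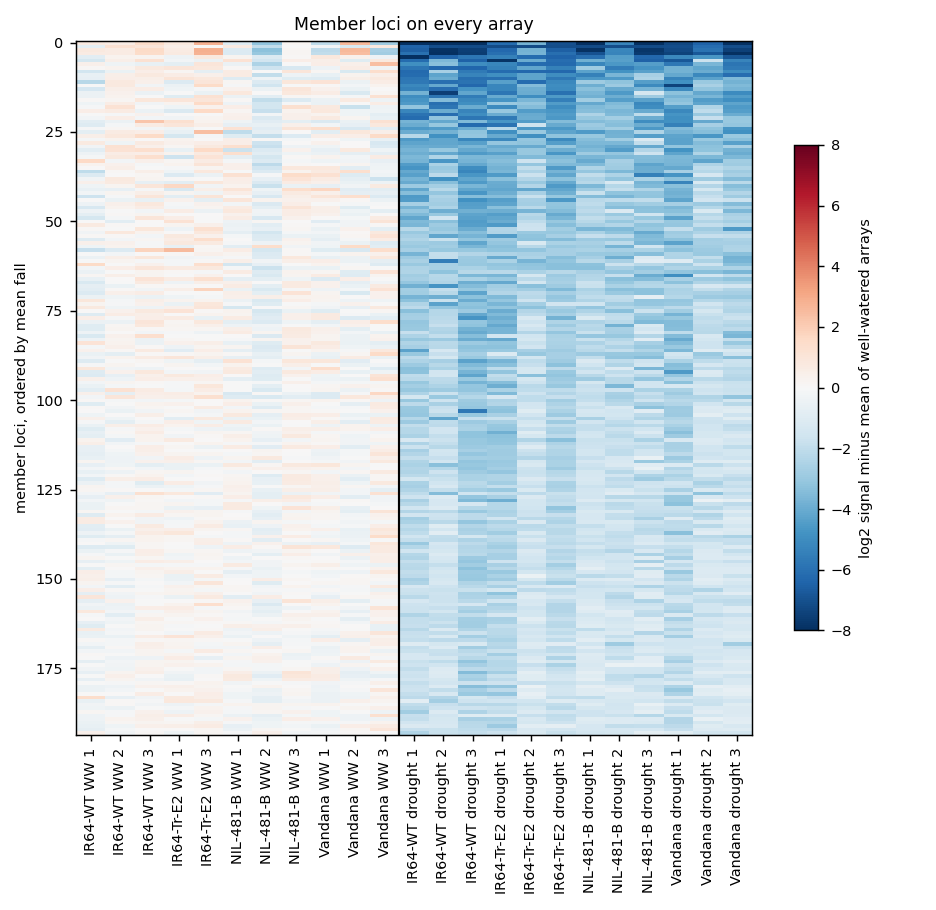
The 194 loci on each of the 23 arrays. Colour is the log2 signal minus the mean of the well-watered arrays (blue lower, red higher), columns are arrays with well-watered ones at left of the black line, and rows are ordered by the mean fall. All drought columns are blue, most deeply in the rows at the top.

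The gap between the lowest well-watered and the highest drought value was small for many loci: it was under 0.1 log2 units at 31 of 194 and over 1 at 16. Its median was 0.40. The highest drought value was that of NIL-481-B replicate 3 at 38 loci, of Vandana replicate 2 at 36, of IR64-Tr-E2 replicate 2 at 35 and of NIL-481-B replicate 1 at 24. The lowest well-watered value was that of NIL-481-B replicate 2 at 68 loci and of IR64-WT replicate 1 at 47. Membership turned on few arrays. Without NIL-481-B drought replicate 3 the rule finds 303 loci.

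Next to the threshold on size, LOC_Os02g02730 (-1.54), LOC_Os02g48980 (-1.54) and LOC_Os02g09930 (-1.53) were just inside, and LOC_Os02g36300 (-1.49), LOC_Os06g24850 (-1.49) and LOC_Os04g54930 (-1.48) just outside. At the limit of overlap, LOC_Os01g18110, LOC_Os08g43870 and LOC_Os02g43290 had gaps between 0.000225 and 0.00151 log2 units, while LOC_Os11g47750, LOC_Os05g04470 and LOC_Os11g07580 had gaps of -0.00727 to -0.00241, which is an overlap. At the limit on background, LOC_Os06g19095, LOC_Os10g07556 and LOC_Os08g14210 were above background on 9 well-watered arrays, and LOC_Os02g39620 and LOC_Os06g42120 on 8.

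On the drought arrays 117 of the 194 loci were well above background on all 12, 71 on 1 to 11 and 6 on none. Some loci were well above background on no drought array of a genotype. There, each signal below the weakest one that passed the background test on its array was raised to it. The fold is then given as at least, no less than or a bound, and holds only for that level. Other probes failed the test at brighter signals: LOC_Os06g07300 passed on no drought array, at signals up to 3.47. The true falls can therefore be smaller than these folds. Loci treated in this way numbered 13 in NIL-481-B, 15 in Vandana, 22 in IR64-Tr-E2 and 37 in IR64-WT. With these loci at their bound the median falls were 2.51, 2.57, 1.98 and 2.11 log2 units in the 4 genotypes, and the falls over 16-fold numbered 31, 32, 9 and 17. Where 1 or 2 of the 3 drought arrays of a genotype were above background, the fall is given as measured and rests in part on dim signals.

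LOC_Os10g18760 had the widest gap, 4.16 log2 units. Its log2 signal was 6.25 at the lowest, 8.28 at the median and 9.43 at the highest of the well-watered arrays, and 1.03, 1.09 and 2.09 on the drought arrays. No drought array was well above background. The drop was at least 46.7-fold in NIL-481-B, 61.2-fold in Vandana, 69.5-fold in IR64-WT and 71.9-fold in IR64-Tr-E2.

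The mean change was -7.19 at LOC_Os07g25060 and -6.98 at LOC_Os10g18760 in the deposited values, and since 3 and 0 of their 12 drought arrays were above background, these 2 loci cannot be ranked. The well-watered signals of LOC_Os07g25060 were 10.3, 10.2 and 11.1 for IR64-WT, 10.4 and 12.4 for IR64-Tr-E2, 8.60, 6.46 and 9.77 for NIL-481-B and 7.61, 12.2 and 6.82 for Vandana. The Vandana value of 12.2 is that of replicate 2, whose expression is nearer the IR64 lines, and the other 2 Vandana arrays were lower than every IR64 array. Its drought signals were 1.21, 1.14 and 1.11 for IR64-WT, 3.50, 5.85 and 2.57 for IR64-Tr-E2, 1.51, 4.33 and 1.47 for NIL-481-B and 2.34, 3.19 and 1.11 for Vandana. The fall was at least 260.4-fold in IR64-WT and at least 81.8-fold in Vandana, the latter at least 25.7-fold without well-watered replicate 2. The measured change was -7.43 log2 units in IR64-Tr-E2, with 2 of 3 drought arrays above background. It was -5.83 in NIL-481-B with 1 of 3 above background, and -5.42 with the dim arrays raised as above.

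LOC_Os07g25050 is adjacent to LOC_Os07g25060 on the array, and LOC_Os07g24830 is separated from LOC_Os07g25050 by 12 array loci. Over the 23 arrays LOC_Os07g25060 had a correlation of 0.991 with LOC_Os07g25050 and of 0.995 with LOC_Os07g24830, the points sharing arrays and treatment. Its log2 signal differed from theirs by up to 2.33 and 1.81 on an array. LOC_Os07g24830 and LOC_Os07g25050 had a correlation of 0.996 and differed by up to 0.90. In Vandana the bound for LOC_Os07g25050 was 86.9-fold, and 28.4-fold without well-watered replicate 2, while the measured change of LOC_Os07g24830 was -6.14, and -4.49 without it. Whether the probes of these loci read the same transcript was not tested.

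LOC_Os02g37190 was the other locus with a gap over 3 log2 units (3.34). Its drought signals were 1.37 at the lowest, 3.20 at the median and 4.88 at the highest, against 8.22, 9.51 and 10.2 when well watered. Its falls were 6.58, 6.16, 5.32 and 5.82 in the 4 genotypes, and 7 drought arrays were well above background.

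The remaining loci among the 10 with the largest measured falls were LOC_Os10g18870, LOC_Os12g26380, LOC_Os10g06140, LOC_Os09g13400 and LOC_Os04g27830. LOC_Os10g18870 is separated from LOC_Os10g18760 by 10 array loci and fell by 5.51, 5.60, 4.93 and 4.71 in the 4 genotypes. Vandana drought replicate 2 was high for it, at 7.30, close to its lowest well-watered value of 7.53. At LOC_Os10g06140 the drop was at least 73.3-fold for IR64-WT, and the measured falls were 4.47 for Vandana, 3.41 for NIL-481-B and 5.93 for IR64-Tr-E2. LOC_Os09g13400 was at least 34.4-fold lower in IR64-Tr-E2, and its measured falls in the other genotypes were 4.38 (IR64-WT), 5.02 (NIL-481-B) and 4.34 (Vandana, 5.00 without well-watered replicate 2). LOC_Os04g27830 was at least 36.8-fold lower in IR64-Tr-E2 and by no less than 30.9-fold in IR64-WT, and its measured falls were 5.15 in Vandana and 3.33 in NIL-481-B. The files give no function for these loci, apart from the one described next, and none is given here.

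Apart from the gene lists, 2 of the 194 loci have a description in the sources used here, and both lie in the qDTY12.1 interval of chromosome 12. The study singles out genes of this interval for description, so that the described loci lie there is no finding about the 194. They are 2 of the 273 interval loci on the array (0.733%), against 0.241% of chromosome 12 loci and 0.367% of all probes. A link of the 194 to the interval was not tested. LOC_Os12g26380 is annotated as a putative dirigent protein, a family that guides the coupling of monolignols to lignans and lignin. Its well-watered signals were 7.71, 6.96 and 6.71 for IR64-WT, 6.54 and 8.30 for IR64-Tr-E2, 6.87, 4.89 and 7.33 for NIL-481-B, and 7.85, 7.75 and 9.74 for Vandana. Under drought they were 2.41, 3.98 and 2.36 for IR64-WT, 2.14, 1.18 and 1.13 for IR64-Tr-E2, 2.09, 2.76 and 2.95 for NIL-481-B, and 1.60, 3.67 and 1.46 for Vandana. Of the 12 drought arrays, 1 was well above background, so the fall was at least 34.3-fold in IR64-Tr-E2, 17.9-fold in IR64-WT and 13.6-fold in NIL-481-B. In Vandana, where that array lies, the change was -6.21 log2 units as measured and -5.91 with the dim arrays raised to the weakest signal above background. The genotypes cannot be ranked at this locus.

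LOC_Os12g28770 is the gene the study names OsPOEI19_12.1, which it describes as highly similar to an Arabidopsis gene that works in root hair elongation. This locus was bright on all arrays, at 9.26 to 10.97 when well watered and 6.16 to 8.78 under drought. The fall was 3.41 log2 units in IR64-Tr-E2, 2.51 in IR64-WT, 2.06 in NIL-481-B and 1.68 in Vandana. All 3 Vandana drought arrays (8.78, 8.65 and 8.33) were higher than those of the IR64 lines (6.16 to 7.90). The NIL-481-B drought arrays (8.19, 6.46 and 8.54) overlapped both. At this locus the drought level was not called as different between the backgrounds. In the study's qPCR of roots at the heading stage, this gene was instead among those up-regulated under drought in NIL-481-B. Stage and method differ from those here, and the cause of the opposite direction was not tested.

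**Figure D3:**
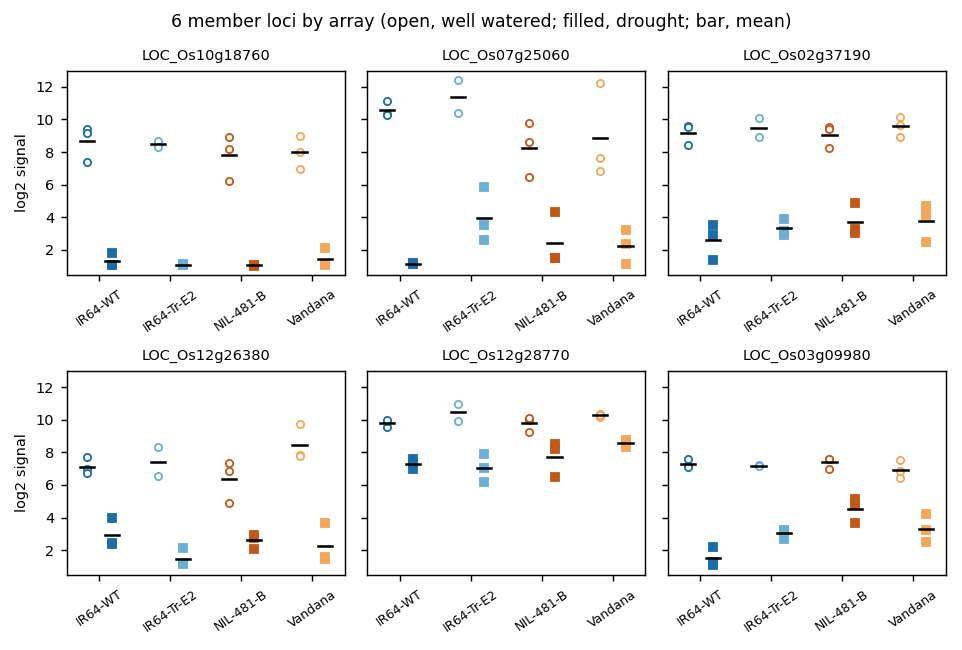
Log2 signal by array for 6 loci. Open circles are well-watered arrays, filled squares drought arrays and bars the group means, for each genotype. In LOC_Os10g18760 the drought arrays lie at 1.03 to 2.09, below all well-watered arrays at 6.25 to 9.43.

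The list of 12 iron acquisition loci covers nicotianamine and mugineic acid synthesis, chelate transport, iron import and bHLH regulators. Of the 12 loci, 3 were among the 194, against 0.367% of all probes. The list was chosen with earlier results of these data known, so this count is no test of enrichment. LOC_Os03g19427 and LOC_Os03g19420 are adjacent. On 23 arrays they had a correlation of 0.973, the points sharing arrays and treatment, and differed by up to 3.12 on an array. Whether their probes read the same transcript was not tested. LOC_Os03g19427 was at 13.1, 13.9 and 12.9 in well-watered IR64-WT, 12.7 and 14.7 in IR64-Tr-E2, 13.0, 11.6 and 13.1 in NIL-481-B and 13.2, 13.0 and 13.5 in Vandana. Under drought it was at 8.03, 9.06 and 6.90 for IR64-WT, 7.96, 9.71 and 8.21 for IR64-Tr-E2, 9.26, 10.3 and 8.09 for NIL-481-B and 5.77, 10.6 and 9.65 for Vandana. This locus fell by 5.33 ± 0.97, 5.09 ± 1.09, 3.38 ± 0.97 and 4.54 ± 0.97 (fit SE). The falls of LOC_Os03g19420 were 4.15, 3.70, 2.38 and 2.72, and those of LOC_Os01g72370 were 3.31, 3.22, 2.46 and 2.80. LOC_Os01g72370 was well above background on all arrays, at 9.10 to 11.4 well watered and 6.55 to 8.16 under drought.

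The other 9 iron loci were tested, since the rule did not choose them. The list itself was chosen with earlier results of these data known, so these tests are not independent of the arrays. By limma with Benjamini-Hochberg adjustment over all probes, 0 were lower in NIL-481-B (background 0.206% of probes called lower), 2 in Vandana (0.495%), 3 in IR64-Tr-E2 (2.85%) and 4 in IR64-WT (1.74%), and 0 were higher in any genotype. In NIL-481-B 3 of the 9 had an unadjusted p under 0.05. After Bonferroni adjustment 0 of the 9 were called in any genotype, and 6, 5, 3 and 4 had an unadjusted p under 0.05 in the 4 genotypes. LOC_Os02g20360 fell in IR64-WT by 3.58 ± 0.67 (SE; limma adjusted p = 0.00488) and in IR64-Tr-E2 by 3.11 ± 0.75 (0.0204). LOC_Os02g43370 fell by 2.03 ± 0.42 in IR64-WT (limma adjusted p = 0.00900), by 1.94 ± 0.47 in IR64-Tr-E2 (0.0196) and by 2.28 ± 0.42 in Vandana (0.0100), and its change in NIL-481-B was -1.66 ± 0.42 (0.0938).

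LOC_Os03g13390 was called in IR64-WT (-1.85) and IR64-Tr-E2 (-2.31), and LOC_Os11g04020 in IR64-WT (-3.01) and Vandana (-3.42). Of the 9 calls, 3 held in all 30 settings tried, those of LOC_Os02g20360 in IR64-WT and of LOC_Os02g43370 in IR64-WT and Vandana. In Vandana LOC_Os11g04020 lost its call without Vandana drought replicate 1 (limma adjusted p = 0.191), Vandana well-watered replicate 3 (0.171) or 2 (0.0517), NIL-481-B drought replicate 1, NIL-481-B well-watered replicate 1 or IR64-Tr-E2 drought replicate 3, with the 75th percentile shift (0.0606) and with slide as a block (0.0943). In IR64-WT it lost its call without any 1 of the IR64-WT arrays other than drought replicate 2, and with the 75th percentile shift (limma adjusted p = 0.0682). LOC_Os03g13390 lost its call in IR64-WT without drought replicate 3 (limma adjusted p = 0.127), without drought replicate 2 or well-watered replicate 2 or 3 of that line, and with the 75th percentile shift (0.0629).

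The calls in IR64-Tr-E2 turned on its own arrays. LOC_Os03g13390 lost its call without drought replicate 1 or either well-watered array, LOC_Os02g43370 without drought replicate 2 or 3 or well-watered replicate 3 (limma adjusted p = 0.204), and LOC_Os02g20360 without drought replicate 3 or well-watered replicate 3 (0.131). For these 9 loci no difference in drought response between genotypes was called.

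**Figure D4:**
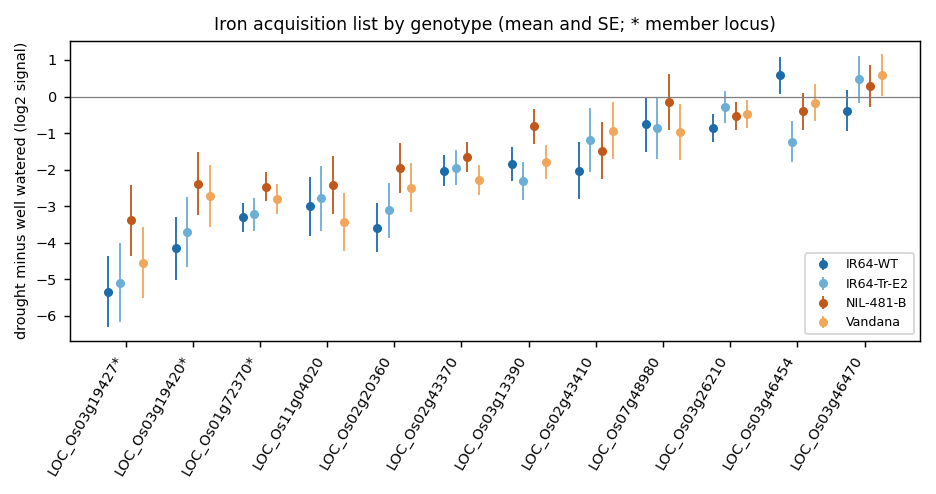
Change of 12 iron acquisition loci under drought in each genotype. Points are drought minus well watered on the log2 signal scale and bars the SE of the limma fit, with members of the 194 marked by an asterisk. The 3 members changed by -5.33 to -2.38, while LOC_Os03g46454 and LOC_Os03g46470, which were dim, changed by -1.23 to 0.58.

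The other fixed lists held no member. Of 13 nitrate and ammonium uptake genes on the array, 1, 3, 1 and 1 were called lower in the 4 genotypes by Benjamini-Hochberg adjustment, and 0 higher. Of 8 fermentation and haemoglobin genes, 2 were called lower in IR64-Tr-E2 and 1 in Vandana. Of all probes 1.74%, 2.85%, 0.206% and 0.495% were called lower in the 4 genotypes. Of 11 plasma membrane aquaporins 0 were called in either direction. Of 10 tonoplast aquaporins 2, 2, 0 and 1 were called higher in the 4 genotypes. Of 9 type A response regulators it was 0, 2, 0 and 0, and of 13 diterpenoid genes 5, 3, 1 and 0. In these lists 0 were called lower. The shares of all probes called higher were 2.98%, 5.04%, 0.372% and 1.16%.

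The 194 loci were spread over all 12 chromosomes, from 0.188% of loci on chromosome 9 to 0.611% on chromosome 3, which held 33. Neighbours on the array were examined after the values were seen. There were 6 runs of directly adjacent members, with 13 loci. The longest, LOC_Os03g57970, LOC_Os03g57980 and LOC_Os03g57990, fell by 1.66, 1.93 and 2.06 in IR64-WT, by 1.80, 2.04 and 1.70 in NIL-481-B, by 1.68, 1.24 and 1.13 in Vandana and by 1.21, 1.18 and 1.49 in IR64-Tr-E2. In LOC_Os03g61480 and LOC_Os03g61490 the falls lay between 2.85 and 3.53 in all 4 genotypes.

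Comparing genotypes used a contrast that the rule did not. Requiring no overlap over all arrays does limit how far the genotypes can differ. The fall was larger in the IR64 lines than in NIL-481-B and Vandana at 173 of 194 loci, with a median difference of -0.60 log2 units (all probes -0.01, 50.7% of them below 0). No locus was called for this difference by limma: 0 passed Bonferroni (background 0.00945% of probes) and 0 Benjamini-Hochberg (0.0246%), while 27 (13.9%) had an unadjusted p under 0.05, against 5.55% of all probes. The smallest adjusted p was 0.404, for LOC_Os03g09980. The largest difference among the 194 was -2.28. In simulated arrays, a true difference of 2 log2 units in this contrast was called at 11% of 100 changed probes by Bonferroni. By Benjamini-Hochberg it was called at 40%. The lack of calls therefore does not show that the falls were equal. Without Vandana well-watered replicate 2, 168 loci fell more in the IR64 lines, and with the 75th percentile shift 140 did so relative to the median of all probes.

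The order of the backgrounds was not the same on every slide. On the slide that holds drought and well-watered arrays of all 4 genotypes, 113 loci fell more and 81 less in the IR64 lines, with a median difference of -0.25. The 2 other slides with both backgrounds gave 162 and 176 loci with medians of -1.03 and -1.39. The slide with 162 compares IR64-Tr-E2 with NIL-481-B. The slide with 176 compares IR64-WT with NIL-481-B and Vandana, and its Vandana well-watered array is replicate 2, which lay nearer the IR64 lines. On each of these slides a compared genotype has 1 array of each kind. That all 194 loci were lower under drought on each of the 4 slides follows from the rule. Over all arrays of a slide the median difference between treatments lay between -2.48 and -2.18. These values mix genotypes with treatment, and 1 slide held only a Vandana drought array and an IR64-WT well-watered array.

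**Figure D5:**
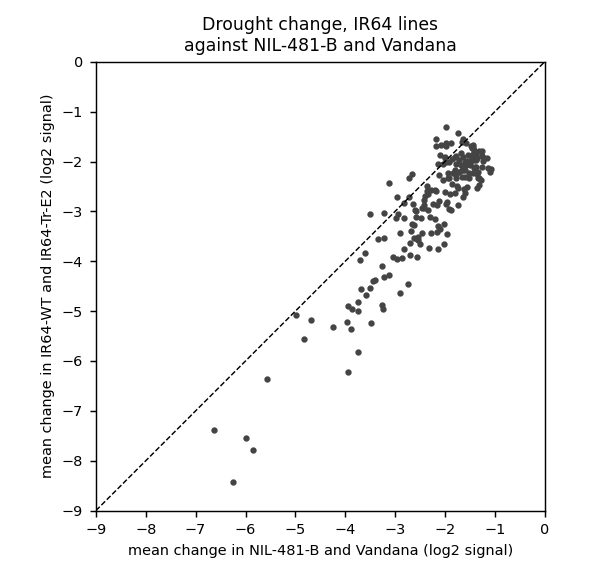
Mean drought change of the 194 loci in the IR64 lines (vertical) against that in NIL-481-B and Vandana (horizontal), both on the log2 signal scale. The dashed line marks equal change, and 173 of the 194 points lie below it.

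Within each background the median differences were smaller. For IR64-Tr-E2 against IR64-WT the median difference in response was 0.01, with 94 loci lower and 100 higher. For NIL-481-B against Vandana it was 0.19, with 61 lower and 133 higher. By limma 0 loci were called in either by Bonferroni or Benjamini-Hochberg adjustment (background 0% and 0.00189%), and 5 and 3 loci had an unadjusted p under 0.05 (2.58% and 1.55%, against 3.35% and 1.72% of all probes). The median SE of such a difference was 0.76 and 0.72 log2 units per locus.

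The levels themselves were compared between the backgrounds too. Under drought, 160 loci were lower in the IR64 lines, with a median difference of -0.48. By limma 0 were called after Bonferroni adjustment (background 0.512%) and 6 after Benjamini-Hochberg (3.2%), all lower in the IR64 lines (1.44% of all probes were called lower). At an unadjusted p under 0.05 there were 53 (27.3% of the 194, against 12.2% of all probes). When well watered, 0 were called (0.0435% and 1.45%), with 15 at an unadjusted p under 0.05 (7.73%, against 9.71% of all probes) and a median difference of 0.11. With 1 array left out, 0 to 4 loci were called by Benjamini-Hochberg adjustment: 4 without Vandana well-watered replicate 2, and 1 without IR64-WT well-watered replicate 1, NIL-481-B well-watered replicate 1 or IR64-Tr-E2 drought replicate 2.

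The 6 loci called under drought were LOC_Os03g09980, LOC_Os03g44050, LOC_Os02g16030, LOC_Os07g44930, LOC_Os09g32964 and LOC_Os05g04820. LOC_Os03g09980 was at 1.27, 1.08 and 2.21 for IR64-WT, 3.24, 3.15 and 2.70 for IR64-Tr-E2, 4.74, 3.69 and 5.13 for NIL-481-B and 2.50, 4.23 and 3.25 for Vandana. The difference was -1.65 ± 0.31 (SE; limma adjusted p = 0.00339). The NIL-481-B arrays were above all 6 arrays of the IR64 lines, while Vandana overlapped IR64-Tr-E2. No IR64-WT array was well above background at this locus or at LOC_Os03g44050 (-1.57 ± 0.30, 0.00464 after limma adjustment), so the lower end of both is a bound. LOC_Os09g32964 was well above background on all drought arrays, at 4.70 to 5.78 in IR64-WT, 4.74 to 6.81 in IR64-Tr-E2, 6.51 to 8.78 in NIL-481-B and 5.62 to 6.95 in Vandana, a difference of -1.55 ± 0.39 (limma adjusted p = 0.0345).

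Single arrays decided several of these 6 calls. Between 2 and 14 loci were called when 1 array was left out: 2 without IR64-Tr-E2 drought replicate 1, 3 without IR64-WT drought replicate 3, IR64-Tr-E2 drought replicate 3 or Vandana drought replicate 3, 13 without IR64-WT drought replicate 2 or IR64-Tr-E2 drought replicate 2, and 14 without Vandana drought replicate 1.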

How the data were processed

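The authors hybridised Cy3-labelled root RNA to 1-colour Agilent arrays and deposited Feature Extraction output (version 11.0 in the notes, 11.5.1.1 in the file headers) with a background-subtracted intensity for each of 62976 spots, of which 61657 are no controls, not normalized between arrays. The authors also deposited log2 values, quantile normalized and centred on each probe, from which the members were chosen; tested on the files, their scale and centring match the intensities. The flags well above background are deposited with the spots. Here, spots marked as outliers (0 to 17 per array) were left out, log2 intensities of a probe's spots were averaged, and all 52901 probes were quantile normalized and fitted in limma 3.58.1 (R 4.3.3) with a mean for each of 8 groups. A call needed over 2-fold and a Bonferroni-adjusted p below 0.05, with Benjamini-Hochberg as an alternative; tests were two-sided. Python 3.11.15, numpy 2.4.6, pandas 2.3.3 and matplotlib 3.10.9 were used. No depth exists for arrays, whose number limits precision. The fit was tested on simulated data, with the share of differences it called given above.

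The members and the 10 gene lists were chosen with earlier results of these data known. Named are the 10 largest falls, annotated members, members of a list, called members, and the nearest loci at each threshold. Samples were grouped by their labels. No array labelled IR64-Tr-E2 well-watered replicate 2 was analysed here. The gene lists, the cell markers and the functions named with them came from general knowledge of rice. Other gene descriptions and sequences were not used here beyond those the study gives. Alternatives were the deposited values, a 75th percentile shift, normexp with an offset of 50, a filter on dim probes, slide and replicate blocks, and each array left out.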

Additional observations from a re-analysis of the deposited data

How the results depend on the processing

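The rule found 194 loci, 121 with a mean difference below -2, and 187 to 303 with 1 array left out (303 without NIL-481-B drought replicate 3). With normexp background correction it found 74, of which 71 were among the 194. With the 75th percentile shift it found 195, of which 162 were among the 194, so which loci are members depends on the normalization. The median changes with normexp were -1.55 in IR64-Tr-E2, -1.49 in IR64-WT, -1.27 in Vandana and -1.175 in NIL-481-B, the cause not being tested. With each array left out they ranged in the same order over -2.85 to -2.35, -2.76 to -2.35, -2.30 to -1.87 and -2.21 to -1.86. With the 75th percentile shift the median of all probes moved by -1.12 in IR64-Tr-E2 and -0.57 in Vandana, and relative to it the members fell by 2.09, 1.59, 2.01 and 1.63 in IR64-WT, then IR64-Tr-E2, then NIL-481-B, then Vandana. Loci that fell more in the IR64 lines numbered 140 relative to the median of all probes with that shift, 158 with normexp and 163 to 179 with 1 array left out. For the level under drought, 6 loci were called by Benjamini-Hochberg adjustment, 0 with normexp and 12 with slide as a block, the cause not being tested; all other counts of called members stayed at 0 at Bonferroni in every alternative. Among non-members of the lists, 6 were called by Bonferroni and 25 by Benjamini-Hochberg; of the iron loci, 4 were called lower by the latter and 0 by Bonferroni. Samples with the same replicate number had a median correlation of -0.02 in their deviations from the group means, from -0.42 to 0.53. The study grew the plants in randomized complete blocks. With 2 or 3 arrays per group these correlations cannot decide whether the numbers mark blocks. With the replicate number as a block 0 members were called by Bonferroni in each contrast. For the level under drought 5 were called by Benjamini-Hochberg. The 2 or 3 arrays per group and signals near background limit every value.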
